A study of Mus musculus with 8 samples.

Results

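Translation initiation factors (eIFs) and elongation factors (eEFs) were read out as mRNAs on polysomes of the mouse main olfactory epithelium, the nasal tissue that holds the olfactory sensory neurons. The members were all rows of the deposited table whose symbol begins with Eif1 to Eif6 or with Eef1 or Eef2. The 4 kinases of eIF2 were left out, since they regulate initiation and are not factors. This gave 58 genes of 21765 rows, of which 57 had a mean of at least 1 transcript per 1000000 (TPM) and were tested. The remaining one, Eif4e1b, an eIF4E form known from oocytes, was listed at 0 in all 8 libraries. Wild-type (WT) tissue carried floxed Mex3a, as flox/flox or flox/+, without Cre. Conditional knockout (cKO) tissue was Mex3a flox/flox with Cre, and the Cre line is not named here. Mex3a encodes an RNA-binding protein. All tissue received 100 µg/mL cycloheximide, which stalls elongating ribosomes. Gradient fractions 27 to 34 were pooled as early (lighter) polysomes and 35 to 42 as late (heavier) polysomes, giving 2 libraries for each of WT early, WT late, cKO early and cKO late. Age and sex of the mice are not given in the sources used here. Library names assign 1 early and 1 late library to each of 4 lysates. They do not say how many animals a lysate held, so p-values measure the spread between these lysates.

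Initiation starts when eIF2 carries the initiator tRNA to the small ribosomal subunit with eIF1, eIF1A, eIF3 and eIF5. The eIF4 group then recruits this complex to capped mRNA, and eIF5B joins the large subunit. During elongation eEF1A delivers aminoacyl-tRNA, eEF1B recharges eEF1A with GTP, and eEF2 moves the ribosome by a codon. Many elongation factor mRNAs, and some eIF3 subunit mRNAs, belong with the ribosomal protein mRNAs to the TOP class. TOP mRNAs begin with a C followed by a run of pyrimidines, and their translation follows mTOR signalling through LARP1. The TOP-type list used here held 17 members of the table: Eef1a1, Eef1b2, Eef1d, Eef1g, Eef2 and 12 eIF3 subunits (a to i and k to m). A narrower list kept the elongation factors and Eif3e, Eif3f and Eif3h, 8 genes in all. The other 41 members are called other factors.

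Start-site sequences from RefSeq (GRCm38.p6) are shown because the TOP class is defined there. Each line holds 30 bases, 5′ to 3′ on the transcribed strand. Capitals mark the longest run of C and T that begins with C and lies at least partly within 20 bases of the annotated start.
Eef1a1, chr9:78481708-78481737, minus strand: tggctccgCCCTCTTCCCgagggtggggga
Eif3f, chr7:108934403-108934432, plus strand: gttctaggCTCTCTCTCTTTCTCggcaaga
Eif3k, chr7:28981854-28981883, minus strand: tgaaagcgCCTTTCCCTTTgccttccttgt
Eif3l, chr15:79075219-79075248, plus strand: ttcttccgCTCTCTCCCacgggcttctgga
Eif3m, chr2:105017026-105017055, minus strand: cggcaccgCTCTCTTTTCCggtcggcgtgt
Eif3b, chr5:140419299-140419328, plus strand: cgcggtgaCTTCTgggagtcggaagcaggg
Eif3d, chr15:77970809-77970838, minus strand: tggtagggCCatttacgacagcgctggtcg
Eef1a2, chr2:181156977-181157006, minus strand: cactggttCTCTCCCTCgctccggtgcatc
Eif2b5, chr16:20498794-20498823, plus strand: tgcgcattCCTTCCTCTTTCTCTCCCTgca

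Annotated starts were matched for 45 members. A run of at least 8 bases was present in 5 of the 12 matched TOP-type factors, namely Eef1a1, Eif3f, Eif3k, Eif3l and Eif3m, which is 41.7%. It was present in 8 of 33 other factors (24.2%), in 33 of 63 ribosomal protein genes (52.4%) and in 19.1% of all 27025 genes with an annotated start. Where a gene had several annotated starts, the longest run was taken. Relative to the annotated start, the runs of Eef1a1, Eif3f, Eif3k, Eif3l and Eif3m began at -5, -4, 14, 5 and -20. Of these, only the runs of Eef1a1 and Eif3f covered the start, and that of Eif3m ended before it. The printed lines do not mark the start. The longest run among the members, 19 bases, was that of Eif2b5, a catalytic eIF2B subunit outside the TOP-type list. Eef1b2 had 4 bases, Eif3b 5 and Eif3d 2, so run lengths at annotated starts do not sort the members in the way the TOP-type list does. An annotated start may differ from the start used in this tissue, and a match describes these letters only.

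Whole reads inferred from the steps of the TPM values ranged from 7776792 in the second cKO late library to 12771079 in the second WT late library. Mex3a was listed at 93.2 to 115.6 TPM in the 4 WT libraries and at 11.1 to 19.8 TPM in the 4 cKO libraries. The genotype tag of WT early replicate 2 reads cKO, while its title and library name read WT. Its Mex3a level was the 115.6 TPM given above, and it was kept as WT. Markers of mature and immature olfactory neurons, basal cells, sustentacular cells, gland cells and immune cells were all present. The 10 markers of mature neurons summed to 10459.7 to 12671 TPM in early and 7600.4 to 9250.1 TPM in late libraries. Those of immature neurons went the other way, from 2246 to 2643 TPM in early to 3064 to 3702 TPM in late libraries. The sums of basal and sustentacular markers were also higher in every late library than in any early one. The 7 gland markers summed to 5588 to 10499.7 TPM in early and 13051 to 20789.6 TPM in late libraries. The 7 immune markers, of which 6 were above 0 in every library, summed to 334 to 375 TPM in WT early, 431 to 452 TPM in cKO early, 277 to 316 TPM in WT late and 350.3 to 356 TPM in cKO late libraries. The part of cell makeup in the results below was not tested.

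Together the 58 factors made up 1.06% to 1.23% of the TPM of a library, and a few genes carried much of it. Eef1a1, which delivers aminoacyl-tRNA, and Eef2, the translocase, were the most abundant members in both pools and held 25.02% to 30.2% of the members' summed TPM. Eef1a1 was listed at 2250.2 and 1819 TPM in WT early, 2265 and 1794 TPM in cKO early, 2306 and 1961 TPM in WT late, and 2410.4 and 2048 TPM in cKO late libraries. Eef2 was listed at 1139 and 953 TPM in WT early, 1097 and 869 TPM in cKO early, 1150.2 and 1078 TPM in WT late, and 1253 and 1120.2 TPM in cKO late libraries. Early and late libraries overlapped for both genes. In each of the 4 groups replicate 1 was above replicate 2. Next in early polysomes came Eif4g2, Eif1 and Eif5a, whereas in late polysomes these places were taken by Eif3c, Eif4g2 and Eef1a2, as the plot of levels in each library shows for several of them. TPM is a length-normalised level, so these orders compare genes per length.

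**Figure D1:**
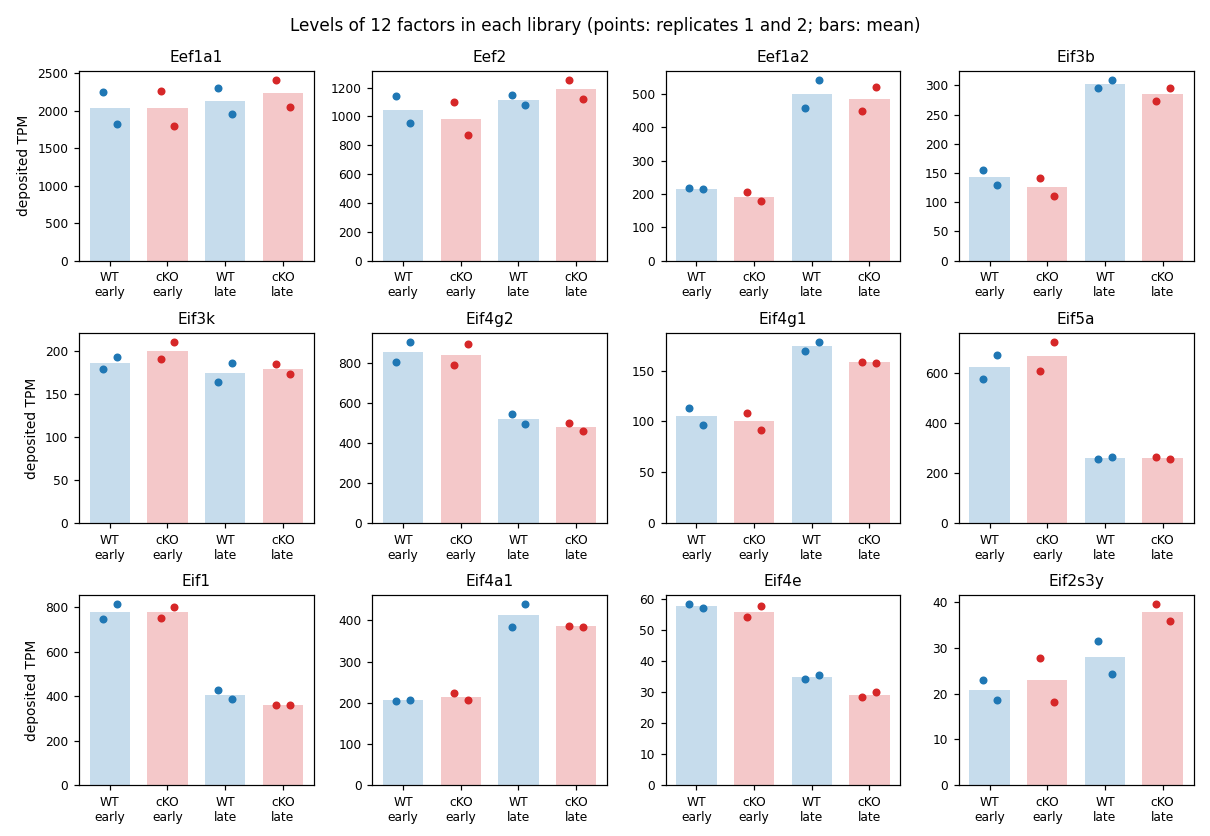
Deposited TPM of 12 factors in each library, on linear axes that start at 0, with points for replicates 1 and 2 and bars for their mean (WT blue, cKO red). Eef1a1 and Eef2 overlap between early and late polysomes, Eef1a2, Eif3b, Eif4g1 and Eif4a1 are higher in every late library, and Eif4g2, Eif5a, Eif1 and Eif4e are higher in every early library.

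Late polysomes were then compared with early ones to find which factor mRNAs were relatively more or less abundant in the heavier pool. Libraries were scaled to each other, so a rise or fall is relative to the other mRNAs and is not an amount of RNA. Changes are differences in log2(scaled TPM + 1), late minus early, averaged over the 4 lysates, each with its standard error (SE). Adjusted p-values come from limma with Benjamini-Hochberg adjustment over all 16097 genes tested, with a threshold of 0.05. Of the 57 tested factors, 26 were higher in late polysomes, 20 were lower and 11 did not pass the test. Over all genes tested, 68.9% were called, 34.3% as higher and 34.6% as lower, so most genes of the table separated between the pools. Within WT, 21 factors were higher and 17 lower, and 54.8% of all genes were called (27.1% higher, 27.7% lower). Within cKO, 22 were higher and 19 lower, and 58.1% of all genes were called (28.9% higher, 29.2% lower). The median change of the factors was 0.10 and that of all genes -0.01, with single factors between -1.56 and 1.15. Some groups of factors lay mostly on one side and others held members on both sides, as the plot of changes by factor and lysate shows.

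**Figure D2:**
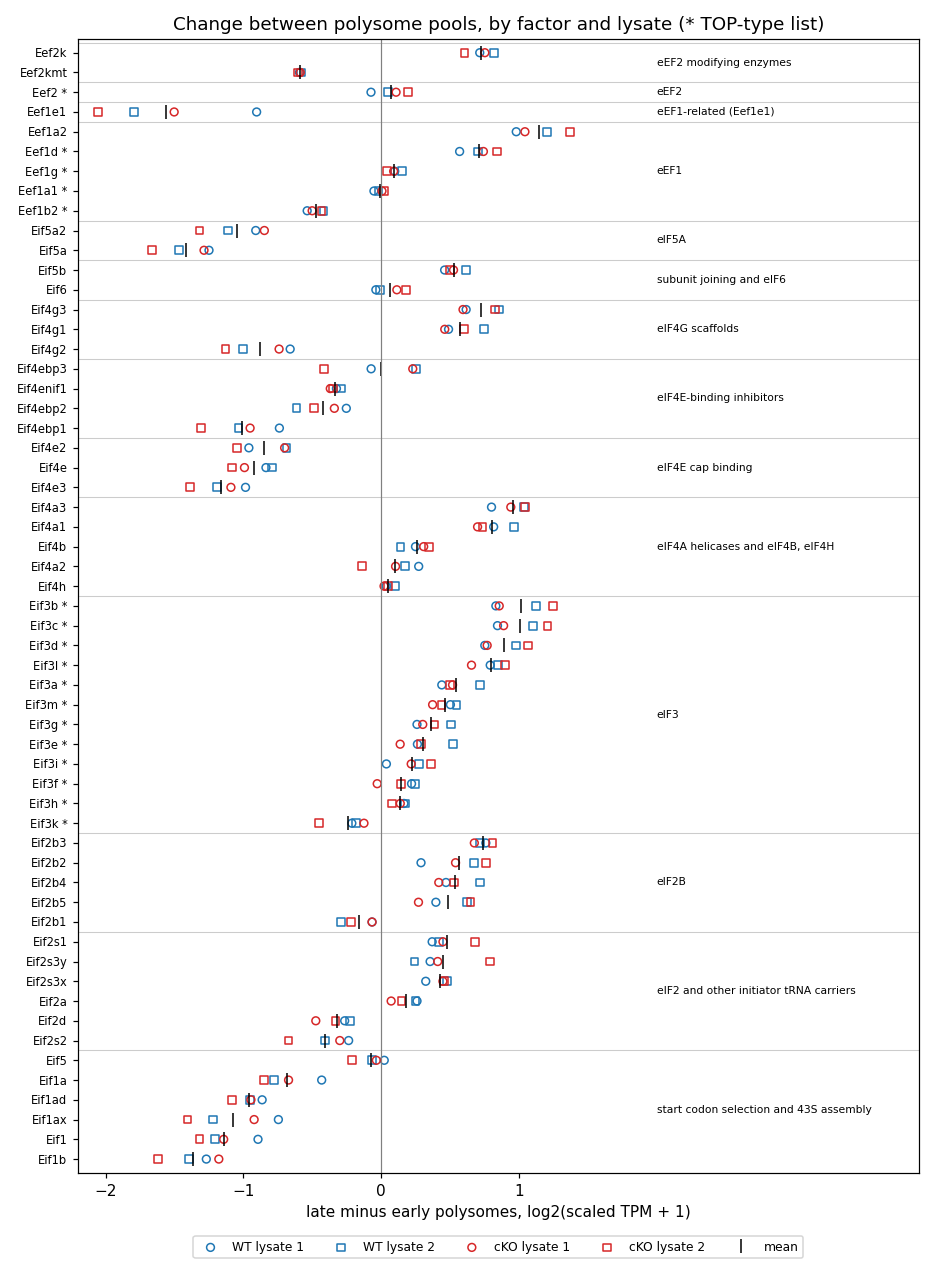
Late-minus-early change in log2(scaled TPM + 1) of the 57 tested factors, grouped by role, with 1 point for each lysate (WT blue, cKO red) and a bar for the mean; an asterisk marks the TOP-type list. Most eIF3 and eIF2B subunits lie right of 0, whereas eIF1, eIF1A, eIF4E and eIF5A genes lie left of 0 in all 4 lysates.

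Subunits of eIF3, the scaffold that holds the initiation complex on the small subunit, were mostly higher in late polysomes: 9 of 12 rose, 1 fell and 2 did not pass the test, with a median change of 0.41. Eif3b, a core subunit, was listed at 156 and 129.6 TPM in WT early, 142 and 110.4 TPM in cKO early, 296 and 309.6 TPM in WT late, and 273 and 296 TPM in cKO late libraries. All late libraries were above all early ones, with a change of 1.02 (SE 0.0934, limma adjusted p = 3.85e-05). Eif3c, another core subunit, ranged from 186 to 283 TPM in early and from 483 to 552 TPM in late libraries, a change of 1.01 (SE 0.109). Eif3d, which can bind the cap of some mRNAs, ranged from 98.1 to 118 TPM in early and from 207 to 232 TPM in late libraries (change 0.89, SE 0.0756). Eif3l ranged from 115 to 128 TPM in early and from 215 to 244 TPM in late libraries (change 0.80, SE 0.0663). These 4 subunits had the highest changes of the complex. In deposited TPM all of their late libraries lay above all early ones. The same held for Eif3e, Eif3g, Eif3h, Eif3i and Eif3m.

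The remaining subunits formed a gradient. Eif3a, the largest subunit by coding length, changed by 0.54 (SE 0.143), Eif3m by 0.46 (SE 0.0751), Eif3g by 0.36 (SE 0.0774), Eif3e by 0.30 (SE 0.0720) and Eif3i by 0.22 (SE 0.0698). Early and late libraries overlapped for Eif3a, at 122 to 199 TPM in early and 195 to 287 TPM in late libraries. Within lysates its change was above 0 each time, at 0.44 and 0.72 in WT and 0.52 and 0.50 in cKO. For Eif3i the adjusted p was 0.0195 and rose to at most 0.0789 when single libraries were left out. Eif3f (0.15, SE 0.0806, adjusted p = 0.139) and Eif3h (0.14, SE 0.0783, adjusted p = 0.144), which form a pair with MPN folds, did not pass limma's test. Eif3k, one of the peripheral subunits, was the only one that fell, by 0.24 (SE 0.0799, adjusted p = 0.0243). It was listed at 178 and 193 TPM in WT early, 191 and 210.4 TPM in cKO early, 164 and 186 TPM in WT late, and 185 and 173 TPM in cKO late libraries. The pools overlapped. Within lysates the change of Eif3k was below 0 each time, at -0.21 and -0.18 in WT and -0.12 and -0.45 in cKO. Its call did not hold on TPM as deposited (-0.13, adjusted p = 0.174) or after quantile normalization (-0.13, adjusted p = 0.164). Leaving out single libraries gave adjusted p-values of up to 0.0957. The 4 subunits with pyrimidine runs of at least 8 bases printed above, Eif3f, Eif3k, Eif3l and Eif3m, spanned changes from -0.24 to 0.80. Eif3b and Eif3d, with shorter runs, changed by 1.02 and 0.89.

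The elongation factors on the TOP-type list did not move as a group. Eef1a1 changed by -0.01 (SE 0.139, adjusted p = 0.949) and Eef2 by 0.07 (SE 0.113, adjusted p = 0.601), so neither passed limma's test. The 3 subunits of eEF1B, the exchange factor of eEF1A, were each different. Eef1b2, a catalytic subunit, fell by 0.47 (SE 0.0784, adjusted p = 0.000753), from 219 to 272 TPM in early to 178 to 203 TPM in late libraries. Eef1d, the other catalytic subunit, rose by 0.71 (SE 0.0705, adjusted p = 5.15e-05), from 61.8 to 72.2 TPM in early to 111 to 125 TPM in late libraries. Eef1g, the scaffold subunit, changed by 0.09 (SE 0.111, adjusted p = 0.467), at 184 to 232 TPM in early and 213 to 262 TPM in late libraries.

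Across the TOP-type list 10 of 17 genes rose, 2 fell and 5 did not pass the test, with a median change of 0.30. Of the other 40 tested factors 16 rose, 18 fell and 6 did not pass, with a median of -0.04, which turned to 0.070 on TPM as deposited and to 0.035 after quantile normalization. The difference of the medians, TOP-type minus other, was 0.31 and 0.55 in the WT lysates and 0.22 and 0.57 in the cKO lysates. It was 0.34 for the averaged changes. It rested on the eIF3 subunits outside the narrow list: with the narrow list the difference was 0.013, and only 2 of its 8 genes rose, 1 fell and 5 did not pass. Ribosomal protein mRNAs, the largest TOP group, were on the other side, with 0 of 78 higher, 68 lower and a median change of -1.11. Other TOP mRNAs also varied. Tpt1 fell by 1.14 on the log2 scale (SE 0.175) and Nap1l1 rose by 0.49 (SE 0.0606), while Rack1, listed under its older symbol Gnb2l1, changed by 0.04 (SE 0.0873, adjusted p = 0.717).

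The sharpest contrast between near-identical proteins was that of the 2 forms of eEF1A. Eef1a2 is the form of neurons and muscle and replaces Eef1a1 there as cells mature. It was listed at 218 and 215 TPM in WT early, 205 and 179 TPM in cKO early, 458 and 543 TPM in WT late, and 449.8 and 521 TPM in cKO late libraries. Every late library was above every early one, with a change of 1.15 (SE 0.0839, adjusted p = 2.06e-05), the highest among all members. The level of Eef1a2 was 9.07% to 11.8% of that of Eef1a1 in early and 18.7% to 27.7% in late libraries. The change of Eef1a2 exceeded that of Eef1a1 by 1.16 ± 0.15 (SD, n = 4 lysates), in the same direction in 4 of 4 lysates. Their longest coding sequences, 1389 and 1386 nt, are almost the same length. Mouse Eef1a1 has many processed copies in the genome, and how the authors' counting treated shared reads is not given in the sources used here.

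Factors of start codon selection were lower in late polysomes: 5 of 6 fell, none rose, and the median change was -1.02. Eif1, which keeps the scanning complex open, was listed at 746 and 813 TPM in WT early, 751 and 801 TPM in cKO early, 426 and 385 TPM in WT late, and 359.7 and 360.4 TPM in cKO late libraries. It fell by 1.14 (SE 0.0823, adjusted p = 2.03e-05) with no overlap between pools. Its paralogue Eif1b fell by 1.36 (SE 0.0886), from 154 to 190.3 TPM in early to 67.5 to 83.3 TPM in late libraries. Eif1ax fell by 1.07 (SE 0.102), Eif1a, its paralogue, by 0.68 (SE 0.0809) and the eIF1A-like Eif1ad by 0.96 (SE 0.0644). Eif5, the GTPase activator of eIF2, was the exception at -0.07 (SE 0.0707, adjusted p = 0.386). Over all genes tested 34.6% were called lower. Eif1, Eif1b, Eif1ax and Eif1ad have short coding sequences. The 1469 genes with the shortest coding sequences, which include these, had a median change of -1.12.

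The eIF2 complex, which binds the initiator tRNA, was divided. Its alpha subunit gene Eif2s1, the target of the stress kinases, rose by 0.48 (SE 0.0670) and its beta subunit gene Eif2s2 fell by 0.40 (SE 0.0864). The gamma subunit genes Eif2s3x and Eif2s3y, on the X and Y chromosomes, rose by 0.43 (SE 0.0689) and 0.45 (SE 0.147). For Eif2s3y the adjusted p was 0.0240 and rose to at most 0.0870 without single libraries. Among alternative initiator tRNA carriers, Eif2d fell by 0.32 (SE 0.0693). Eif2a rose by 0.18 (SE 0.0705, adjusted p = 0.0454), a call that was lost with the lysate block (adjusted p = 0.0619) and without any single library (adjusted p of 0.0554 to 0.140). Of the 5 subunits of eIF2B, which recharges eIF2 with GTP, 4 rose, by 0.48 to 0.74, and Eif2b1, a regulatory subunit, changed by -0.16 (SE 0.0739, adjusted p = 0.0828). Eif2b3 was the highest of them and ranged from 7.99 to 9.23 TPM in early and from 15.5 to 17.3 TPM in late libraries.

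Genes of cap binding were mostly lower in late polysomes. All 3 tested eIF4E genes fell. Eif4e, the main cap-binding protein, was listed at 58.4 and 57.1 TPM in WT early, 54.1 and 57.7 TPM in cKO early, 34.3 and 35.5 TPM in WT late, and 28.3 and 30.1 TPM in cKO late libraries, a change of -0.93 (SE 0.0654). Eif4e2, a repressive form, changed by -0.85 (SE 0.0877) and Eif4e3 by -1.16 (SE 0.0759). Of the eIF4E-binding inhibitors, Eif4ebp1 changed by -1.01 (SE 0.0950), Eif4ebp2 by -0.42 (SE 0.0886) and Eif4enif1, a nuclear import carrier of eIF4E, by -0.33 (SE 0.0598), and these 3 passed the test. Eif4ebp3 rested on 9 to 40 inferred reads per library and did not pass it (adjusted p = 0.996).

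The helicase Eif4a1 rose by 0.80 (SE 0.0719), from 205 to 225 TPM in early to 384 to 439.5 TPM in late libraries. Eif4a3, the exon junction complex member, rose by 0.96 (SE 0.0680), from 112 to 134 TPM to 249.6 to 278 TPM. Eif4a2, close in sequence to Eif4a1, changed by 0.10 (SE 0.0804, adjusted p = 0.277), at 168 to 178 TPM in early and 171 to 222 TPM in late libraries. Eif4a1 changed by 0.70 ± 0.16 (SD, n = 4 lysates) more than Eif4a2 and Eif4a3 by 0.85 ± 0.27 more, in 4 of 4 lysates each. Among the helicase cofactors, Eif4b rose by 0.26 (SE 0.0738, adjusted p = 0.0124, up to 0.0516 without single libraries) and Eif4h changed by 0.05 (SE 0.0640, adjusted p = 0.502).

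Within the eIF4G scaffolds, which bridge cap-binding protein and ribosome, Eif4g2 stood apart. It encodes DAP5, which lacks the eIF4E-binding part and begins at a non-AUG codon. Eif4g2 was listed at 805 and 903 TPM in WT early, 787 and 891 TPM in cKO early, 541 and 492 TPM in WT late, and 498 and 457 TPM in cKO late libraries. It fell by 0.88 (SE 0.0959, adjusted p = 7.78e-05), and all early libraries were above all late ones. Eif4g1 rose by 0.58 (SE 0.0784), from 92.0 to 114 TPM to 158 to 178 TPM. Eif4g3 rose by 0.72 (SE 0.0770), from 57.6 to 82.3 TPM to 112 to 147 TPM. The change of Eif4g1 exceeded that of Eif4g2 by 1.46 ± 0.33 (SD, n = 4 lysates), and the level of Eif4g1 went from 10.3% to 14.1% of that of Eif4g2 in early to 31.4% to 36.2% in late libraries.

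Of the late-acting factors, Eif5b, the subunit-joining GTPase, rose by 0.53 (SE 0.145), and Eif6, which keeps large subunits apart, changed by 0.06 (SE 0.0733, adjusted p = 0.476). Eif5a, which relieves stalled peptide bond formation and carries hypusine, was listed at 577 and 672 TPM in WT early, 610.0 and 725 TPM in cKO early, 257 and 265 TPM in WT late, and 265 and 257 TPM in cKO late libraries. It fell by 1.42 (SE 0.0929, adjusted p = 1.88e-05), and its paralogue Eif5a2, at 6.69 to 16.6 TPM, by 1.05 (SE 0.110). The lowest change of any member was that of Eef1e1, a scaffold protein of the multi-tRNA synthetase complex that is a factor by name only. It went from 36.1 to 51.8 TPM in early to 13.2 to 20.03 TPM in late libraries, a change of -1.56 (SE 0.146). The enzymes acting on eEF2 moved apart: Eef2k, its inhibitory kinase, rose by 0.72 (SE 0.0674) and Eef2kmt, its lysine methyltransferase, fell by 0.59 (SE 0.0694).

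Long coding sequences have room for more ribosomes, so the changes were set beside the longest coding length of each gene in GENCODE. As a description across genes, which are not independent and share the 8 libraries, Spearman's rho between coding length and change was 0.63 over 14687 genes, 0.69 over the 57 tested factors, 0.61 over the 17 TOP-type and 0.68 over the 40 other factors. Genes were then ordered by coding length into 10 length classes of nearly equal size, and the median change of a gene's class was subtracted. All 12 eIF3 subunits lay above the median of their class, from 0.05 for Eif3a to 0.65 for Eif3b, and the complex had a median of 0.43. Eif3k, which fell between the pools, was 0.39 above its class. The 5 TOP-type elongation factors had a median of 0.09, with Eef1a1 at -0.21 and Eef2 at -0.37 from the median of their class. The TOP-type list as a whole had 15 genes above and 2 below, with a median of 0.35, and the other factors had 24 above and 16 below, with a median of 0.09. Ribosomal protein genes had 22 above and 55 below, with a median of -0.24.

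In the class of the shortest coding sequences, which held 10 factors, Eif1, Eif1ax and Eif5a2 were close to the class median, at -0.02, 0.04 and 0.07. Below it were Eef1e1 at -0.45, Eif5a at -0.30 and Eif1b at -0.25, and above it Eif4ebp1 at 0.11 and Eif1ad at 0.16, beside Eif4ebp2 and Eif4ebp3. Factors far above their classes were Eef1a2 at 0.95, Eif4a3 at 0.95, Eif4a1 at 0.80, Eif2b2 at 0.73, Eif4ebp2 at 0.69, Eif6 at 0.69 and Eif4h at 0.68. Eif4ebp3, with few reads, was at 1.12. Factors far below were Eif4g2 at -1.33, Eif4enif1 at -0.78, Eif2d at -0.60 and Eif4e3 at -0.53. Eif4g2 lay at percentile 0.136 of its class. Its longest annotated coding sequence has 2718 nt. The principal coding length was the shortest among the APPRIS principal transcripts of a gene, which for Eif4g2 is 483 nt. Against genes of that principal length the change of Eif4g2 was 0.28 above the median. That value rests on taking the shortest transcript, and whether its 483 nt encode the scaffold was not tested. Principal coding length also moved other factors, among them Eef1e1 from -0.45 to -0.84, Eif4e2 from -0.22 to -0.50 and Eif6 from 0.69 to 0.41. It moved Eif1a from -0.05 to 0.48 and Eif1ad from 0.16 to -0.24, across the class median. Eif2d, Eef1d, Eif2b4, Eif4a2, Eif4g1 and Eif4g3 had no principal length and were not placed that way. The TOP-type median of 0.35 against length classes is the value of Eef1d, whose longest coding sequence has 1980 nt. The plot of changes against coding length shows these genes beside the medians of all genes.

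**Figure D3:**
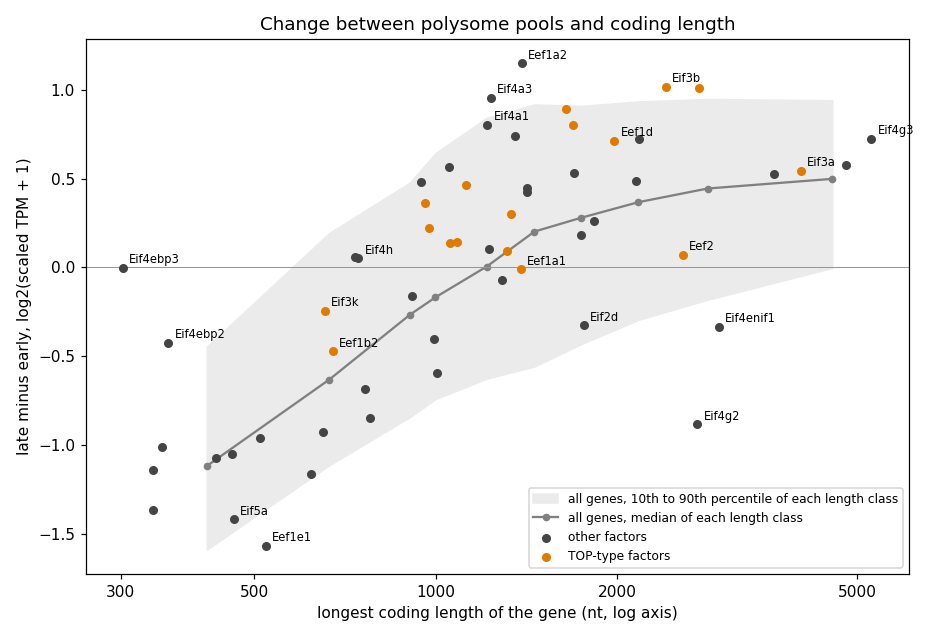
Late-minus-early change in log2(scaled TPM + 1), averaged over 4 lysates, against the longest coding length on a log axis, with TOP-type factors in orange and other factors in grey; the line joins the medians of all genes in each coding-length class and the band spans their 10th to 90th percentiles. The eIF3 subunits lie above the line, Eef1a1 and Eef2 below it, and Eif4g2 (-0.88 at 2718 nt) far under the band.

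Knockout and control were compared in each pool and on the mean of both pools of each lysate. No factor passed the threshold in any of these comparisons, with differences in log2(scaled TPM + 1), cKO minus WT, between -0.25 and 0.32 on lysate means and a median SE of 0.0767. In bulk tissue, fewer cells of a type and less RNA per cell cannot be told apart. Called by limma were 0 of 57 factors in early polysomes (2 at an unadjusted p under 0.05), against 0.0435% of all genes (6.65% unadjusted). In late polysomes 0 were called (3 unadjusted), against 0.0124% of all genes (9.36% unadjusted). On lysate means 0 were called (4 unadjusted), against 0.00621% of all genes (11.3% unadjusted). Voom on the inferred whole reads also called 0 factors in each of these comparisons.

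The members with the largest differences on lysate means were described regardless. Eif4g3 had the lowest at -0.25 (SE 0.0716, adjusted p = 0.372), and both cKO libraries were below both WT libraries in early and in late polysomes. Eif3a followed at -0.22 (SE 0.161), Eif2a at -0.19 (SE 0.0781, adjusted p = 0.439) and Eif4ebp3 at -0.19 (SE 0.354). For Eif2a, WT late libraries were at 43.7 and 40.8 TPM and cKO late libraries at 33.4 and 34.7 TPM. For Eif3a in early polysomes the replicates of a genotype differed by more than the genotypes, with 199 and 141 TPM in WT and 163 and 122 TPM in cKO. In late polysomes Eif3a was at 287 and 254 TPM in WT and 247 and 195 TPM in cKO.

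The highest difference was that of the Y-linked Eif2s3y at 0.32 (SE 0.163, adjusted p = 0.514). It was listed at 23.1 and 18.7 TPM in WT early, 27.9 and 18.1 TPM in cKO early, 31.6 and 24.3 TPM in WT late, and 39.6 and 36.0 TPM in cKO late libraries. The Y-linked Ddx3y differed by 0.54 (SE 0.142, adjusted p = 0.365) and Xist by -0.72 (SE 0.188, adjusted p = 0.362) on lysate means. Ddx3y and Xist were both above 0 in all 8 libraries, and the part of the sex of the animals was not tested. Eef2kmt followed at 0.23 (SE 0.0774, adjusted p = 0.402), Eif4e3 at 0.21 (SE 0.0672, adjusted p = 0.385) and Eif4ebp1 at 0.17 (SE 0.0859, adjusted p = 0.514). Eef2kmt was at 45.2 and 42.9 TPM in WT early and 48.2 and 51.5 TPM in cKO early libraries, with no overlap in either pool.

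**Figure D4:**
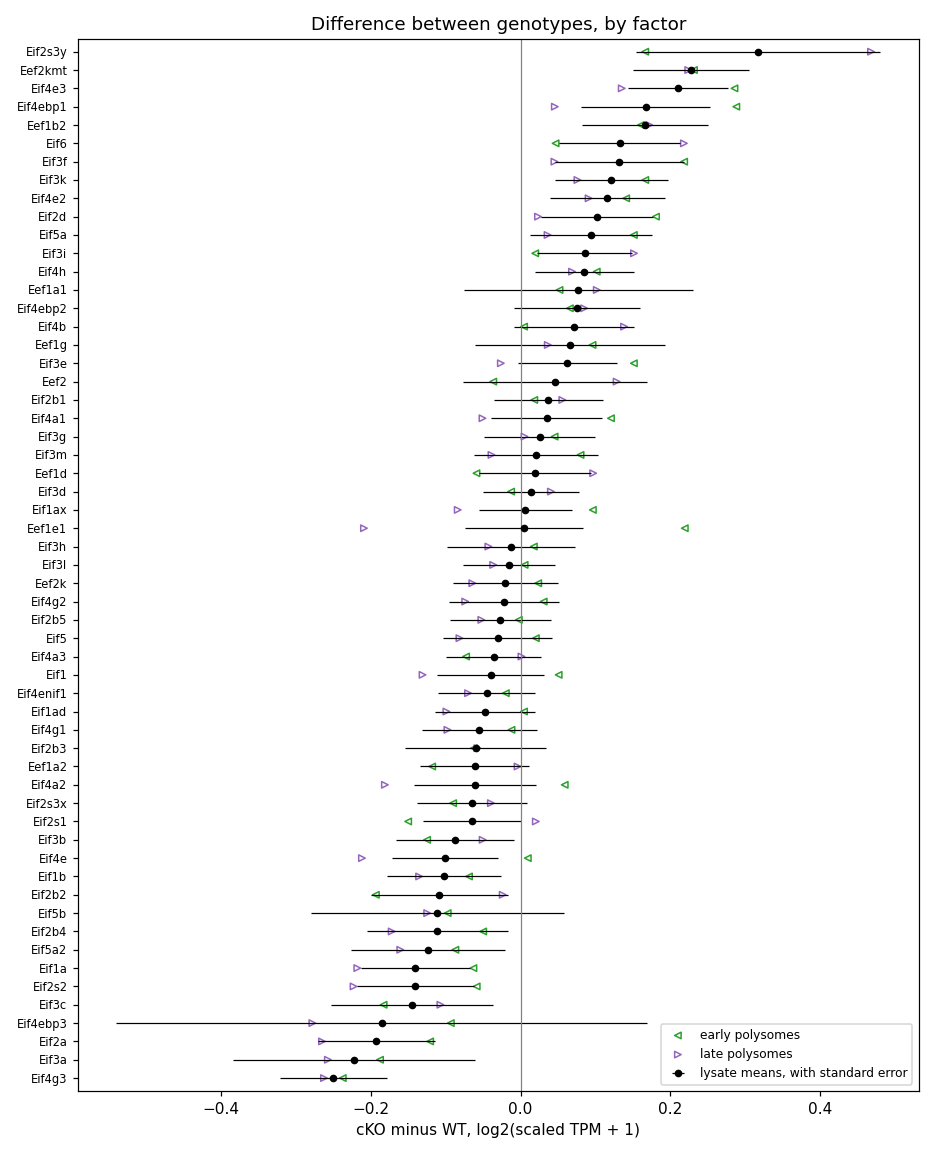
Difference between cKO and WT in log2(scaled TPM + 1) for the 57 tested factors, as the lysate mean with its standard error (black) and in early (green) and late (purple) polysomes. All lysate-mean differences lie between -0.25 and 0.32, and none passed the threshold.

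On scaled TPM, both cKO libraries were above both WT libraries for 10 factors in early polysomes, where 19.6% of all genes were, and below for 8, where 17.6% of all genes were. In late polysomes cKO was above for 9 factors and below for 15, against 20.5% and 20.1% of all genes. In both pools cKO was above for Eef2kmt and Eif4h and below for Eif2a, Eif2b3, Eif2s3x, Eif4enif1 and Eif4g3, that is 2 and 5 factors, against 6.57% and 6.67% of all genes. The TOP-type list had a median difference of 0.03 and the other factors of -0.04 on lysate means, beside 0.00 for all genes. The interaction of genotype and pool, which asks whether the late-minus-early change differed in cKO, called 0 factors (0 unadjusted), against 0.00621% of all genes (2.85% unadjusted). All adjusted p-values of the factors in limma's interaction test rounded to 1.00.

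Genes that regulate or complete translation, listed beside the factors, spread over both directions. Of 35 such genes (poly(A)-binding, release and recycling factors, mTOR pathway genes, eIF2 kinases and phosphatase subunits, hypusine enzymes and others) 15 rose, 14 fell and 6 did not pass between early and late polysomes, with a median change of 0.07. Mtor rose by 0.55 (SE 0.137) and Pabpc1, the main poly(A)-binding protein, fell by 0.43 (SE 0.124). Among the kinases of eIF2, Eif2ak2 rose by 0.45 (SE 0.112) and Eif2ak3 by 0.46 (SE 0.0781). Eif2ak1 (0.17, SE 0.0849) and Eif2ak4 (-0.01, SE 0.107) did not pass limma's test. None of the 35 passed the threshold between genotypes by limma (2 unadjusted in each pool and on lysate means).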

How the data were processed

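The authors deposited 1 table of TPM values for 8 polysome RNA libraries, each column summing to 1000000 (tested on the file). The submitters' processing notes name mm10, FastQC, cutadapt, STAR and DESeq2. The counting method and annotation are not given in the sources used here. Exons of Eif4e3, Eef1d and Eif4ebp3 overlap those of another protein-coding gene on the same strand. Exons of Eif4a1, Eif4a2 and some other members overlap small RNA genes. How reads from these stretches were counted is therefore not known. Stranded total RNA libraries were made with a low-input kit, per the labels' protocols. Whole reads were inferred from TPM steps for 19783 of 19783 genes above 0 in at least 2 libraries (tolerance 0.001). PCR copies are not independent molecules, so reads give counting depth only.

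TPM was scaled by median ratios (factors 0.940 to 1.07). Tests used limma 3.58.1 in R 4.3.3 on log2(scaled TPM + 1), with a mean-variance trend and empirical Bayes moderation, on 16097 genes with mean TPM of at least 1. Fold changes on this scale understate changes of low genes. p-values were two-sided. Groups came from titles. The 4 groups were fitted together, and genotype also on lysate means (2 against 2). The joint fit did not pair the libraries of a lysate, so its SEs include differences in level between replicates. Early and late libraries share lysate names, so a lysate block was an alternative. Deviations of a lysate's libraries from group means correlated at 0.0863 in WT and 0.0502 in cKO.

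Members and lists were chosen with earlier results of these data known. The naming rule took the TOP-type list, the 6 highest and 6 lowest changes between pools, the 4 highest and 4 lowest between genotypes (mean TPM of at least 5) and paralogue pairs. Values are given in each library or, for the rest of these, as ranges over libraries. GENCODE (GRCm38) supplied coding lengths for all 58 members and matched 96.0% of the table's symbols. On simulated libraries, limma recovered 177 of 200 genes changed 3-fold among 15920 genes in the early genotype comparison, with 18 false calls. A simulated interaction with 0 changed genes among 15942 gave 4 false calls. Simulated counts were independent, with the same dispersion for every gene and no lysate effect, so real libraries may differ. Alternatives were other pseudocounts (0.1, 0.5), filters, scalings, voom on inferred reads, no trend, left-out libraries, replicate blocks, only the compared libraries, other TOP-type lists and coding-length classes. Principal coding length was added after seeing the data. Figures were drawn with matplotlib 3.10.9.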

Additional observations from a re-analysis of the deposited data

Results flagged for a closer look

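For Eef1a1 both WT lysates had a late-minus-early change below 0 (-0.05 and -0.02) and both cKO lysates one above 0 (0.01 and 0.02). The difference of these changes, cKO minus WT, was 0.0498 on the log2 scale (SE 0.279), and limma's interaction test gave an adjusted p that rounded to 1.00.

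For Eif6 the WT lysates had changes of -0.04 and -0.01 and the cKO lysates changes of 0.11 and 0.18. The difference, cKO minus WT, was 0.171 on the log2 scale (SE 0.147), and limma's interaction test gave an adjusted p that rounded to 1.00.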

How the results depend on the processing

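Counts of factors called between the pools stayed within 1.5 times under each alternative run. They were 45 to 48 on average (46 as reported), 37 to 45 in WT (38) and 37 to 44 in cKO (41). Without single libraries they were 42 to 46, 29 to 40 and 33 to 43. The lysate block gave 45, 39 and 42 calls, losing Eif2a on average (adjusted p = 0.0619) and Eif3i in cKO (0.0699) and gaining Eif5b in WT (0.00776) and Eif5b (0.00822) and Eif3a (0.00970) in cKO, by limma. With the replicate number as a block, 0 factors were called between genotypes. The numbers share 2 pairs and no label ties them, with correlations of 0.332 in early and 0.143 in late polysomes. All genotype and interaction counts stayed at 0 under all alternatives, and no called factor changed direction.

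The median change of the other factors, -0.04 as reported, was 0.070 on TPM as deposited, 0.035 after quantile normalization, 0.10 with the narrow and -0.16 with the wide TOP-type list. It was 0.088 against classes of the longest and 0.12 against classes of the principal coding length. The TOP-type median was 0.12 with the narrow list, and the difference of medians was then 0.013. Without single libraries the difference was 0.30 to 0.41, the TOP-type median 0.25 to 0.35 and the other median -0.11 to -0.01. The share of higher calls over all genes was 49.7%, and 56.2% on TPM as deposited.

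Differences between genotypes smaller than the 3-fold changes of the simulation were not simulated, and the part of depth was not tested.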
